A study of Homo sapiens with 6 samples.

Results

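DAG1 encodes dystroglycan, and 17 of the 47986 skipped-exon events listed over the 3 pools had their middle exon in this gene on its own strand. The gene (ENSG00000173402.11) lies on hg38 chromosome 3, plus strand, from 49468703 to 49535618, and GENCODE 29 lists 22 transcripts and 0 genes on the opposite strand over it. The 17 events hold 9 exon forms at 5 places, all matched an annotated exon exactly, and all lie upstream of the start codon, whose first base is 49510535. They therefore belong to the 5′ leader of this start codon, and their use does not change the sequence read from it. The 188-, 48- and 147-nt forms are in none of the 15 annotated transcripts that carry this start codon. What molecules with these forms encode was not tested. DAG1 was chosen with its inclusion levels and exclusion reads in these pools known. Its values are accordingly given as a description with counting intervals and no p. The count of its forms that meet a rule applied to all genes is likewise a description.

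Dystroglycan is made as a single precursor that is cut into an extracellular alpha and a membrane-spanning beta subunit. The alpha subunit carries long sugar chains that bind laminin, agrin and perlecan, and the beta subunit binds dystrophin or utrophin inside the cell, so the pair links the extracellular matrix to the cytoskeleton. Defects in the protein or in the enzymes that build its sugar chains cause muscular dystrophies, and loss of the functional sugar chains has been described in carcinomas. A leader exon of an mRNA is not translated into the main protein, but its length and any upstream ATG triplets can bear on how often ribosomes start at the main start codon.

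RNA was measured 48 h after lipid transfection with siRNAs in MDA-LM2 cells, which were derived from the breast cancer line MDA-MB-231 through growth as lung metastases. The siSNRPA1 group has 3 libraries and received siRNAs against SNRPA1, whose product belongs to the U2 particle of the spliceosome, which binds the branch point of introns. The siSNRPB group has 1 library and received siRNA against SNRPB, the gene of SmB and SmB′, which sit in the Sm ring of several spliceosomal particles. The siCtrl group has 2 libraries with control siRNA, and the authors gave 1 set of values per group, so each group is a single pool without replicates. Per the series text SNRPA1 was targeted by 3 siRNAs and SNRPB by 2, although 1 siSNRPB library is listed and SNRPB2 is written in 1 place. Whether libraries of a group came from separate cultures is not stated. Both comparisons with control share the siCtrl pool.

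Reads that fit only inclusion or only exclusion of an exon are called informative here, and with 1 event kept per skipped exon they came to 7155107 in siSNRPA1, 3116325 in siSNRPB and 5201371 in siCtrl. Each target was low in the pool named for it. SNRPA1 event reads in siSNRPA1 were at 18.5% of their siCtrl level, and SNRPB event reads in siSNRPB at 12.4%. In the other knockdown each stood above control, SNRPA1 at 230% in siSNRPB and SNRPB, read over 1 exon, at 136% in siSNRPA1. Of 8 genes usually expressed by mesenchymal breast cancer cells, 5 had events (CD44, FN1, AXL, EGFR and ZEB1), and VIM, CAV1 and MSN had none. The summed level of that list was 4591, 4726 and 4402 reads per 1000000 fitting reads (reads that fit at least 1 isoform) in siSNRPA1, siSNRPB and siCtrl. Of 8 luminal or epithelial genes 6 had events, with sums of 829, 889 and 821 in the same order, of which KRT8 alone gave 804, 870 and 800. In siCtrl ESR1 had 51 fitting reads, PGR 11, CDH1 20 and ESRP1 21. GATA3 had 606, 200 and 284 fitting reads in siSNRPA1, siSNRPB and siCtrl. PTPRC of blood cells had 70, 0 and 77 fitting reads in siSNRPA1, siSNRPB and siCtrl, and PECAM1 and DES had no events.

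The leader is built from a first exon, up to several middle exons and the 401-nt exon that holds the start codon (chr3:49510419-49510819), of which 116 nt are untranslated. The longer first exon named in these events has 302 nt (chr3:49470132-49470433) and a GC content of 77.2%. Splice reads fix only its last base, and annotated first exons from 118 to 302 nt end there. The middle places, in order along the gene, hold an 85-nt exon (chr3:49470965-49471049), a 57-nt exon with a 52-nt form (chr3:49476849-49476905 and chr3:49476849-49476900), a 162-nt exon with a 188-nt form (chr3:49487254-49487415 and chr3:49487228-49487415), a 120-nt exon with a 48-nt form (chr3:49488626-49488745 and chr3:49488698-49488745), and a 151-nt exon with a 147-nt form (chr3:49492823-49492973 and chr3:49492827-49492973). Skipping all of them joins the first exon to the start codon exon over 39985 nt. That join is called the skipping junction below.

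The joins that separate a short leader from a longer one are shown as reference sequence from GENCODE 29 transcripts on hg38, plus strand, 5′ to 3′, with 12 bases on each side of the splice and the first bases of the downstream exon in capitals.
Skipping junction, chr3:49470422-49470433 to chr3:49510419-49510430: cgccggcgctggGCTCTGTGTGCT
First exon to 57-nt exon, chr3:49470422-49470433 to chr3:49476849-49476860: cgccggcgctggGGCCACTGCTCT
57-nt exon to start codon exon, chr3:49476894-49476905 to chr3:49510419-49510430: ctagaaggtgagGCTCTGTGTGCT
151-nt exon to start codon exon, chr3:49492962-49492973 to chr3:49510419-49510430: ttggcttctaatGCTCTGTGTGCT
The 57- and 52-nt forms, and likewise the 151- and 147-nt forms, differ by a few bases at 1 end. The next sequences show these ends, with the bases that only the longer form keeps in capitals.
End of the 57-nt exon, chr3:49476882-49476905: agcagcctagcactagaagGTGAG
Start of the 151-nt exon, chr3:49492823-49492846: ATAGccctgggatctcctgaattt
The 5 bases that the 57-nt form adds over the 52-nt form begin with GT, the letters that open an intron, and the 4 bases that the 151-nt form adds over the 147-nt form end with AG, the letters that close an intron.

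The leader exons differ in what they add to the leader. The 151-nt and 147-nt forms each hold 4 ATG triplets, the 188-nt form holds 2, and the 85-, 162- and 120-nt exons hold 1 each, whereas the 57-, 52- and 48-nt forms hold 0. The 302-nt first exon also holds 0, and the untranslated stretch of the start codon exon holds 1. Among the annotated transcripts, the leader that joins the 302-nt first exon to the start codon exon has 418 nt and 1 ATG. With the 57-nt exon in between it has 475 nt and still 1 ATG, with the 151-nt exon it has 569 nt and 6 ATG triplets, and with the 85-, 57- and 162-nt exons it has 722 nt and 3. All of these upstream ATG triplets are followed in frame by a stop codon ahead of the main start codon. GC content was 42.4% in the 85-nt exon and 45.7% in the 151-nt exon, against 56.2% in the 48-nt form, the highest of the middle forms.

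In both knockdown pools more reads joined the first exon straight to the start codon exon than in control. The skipping junction had 35 reads in siSNRPA1, 29 in siSNRPB and 10 in siCtrl. Per 1000000 informative reads of the pool this was 4.89 in siSNRPA1 (exact 95% Poisson interval 3.41 to 6.80), 9.31 in siSNRPB (6.23 to 13.4) and 1.92 in siCtrl (0.922 to 3.54). The intervals of siSNRPB and siCtrl stood apart, and those of siSNRPA1 and siCtrl overlapped slightly. The ratio to siCtrl was 2.54 for siSNRPA1 (counting interval 1.23 to 5.76) and 4.84 for siSNRPB (2.29 to 11.1), and siSNRPA1 over siSNRPB was 0.526 (0.312 to 0.891). Intervals of reads cover counting error only, since reads without molecular identifiers are not independent molecules.

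The other counted junctions from the 302-nt first exon did not all differ in the same way between pools. Its join to the start that the 57- and 52-nt forms share skips the 85-nt exon. That join had 18 reads in siSNRPA1, 7 in siSNRPB and 23 in siCtrl. Of the 5 junctions from this exon that are counted as exclusion in some event, the skipping junction took 35 of 58 reads in siSNRPA1, or 60.3% (95% Wilson interval 47.5 to 71.9%). It took 29 of 36 in siSNRPB, or 80.6% (65.0 to 90.2%), and 10 of 33 in siCtrl, or 30.3% (17.4 to 47.3%). The 3 remaining junctions, to the 162-, 120- and 151-nt exons, had 5 reads in siSNRPA1 and 0 in siSNRPB and siCtrl. The join to the 85-nt exon is not counted on its own in the files and is not part of these shares.

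**Figure D1:**
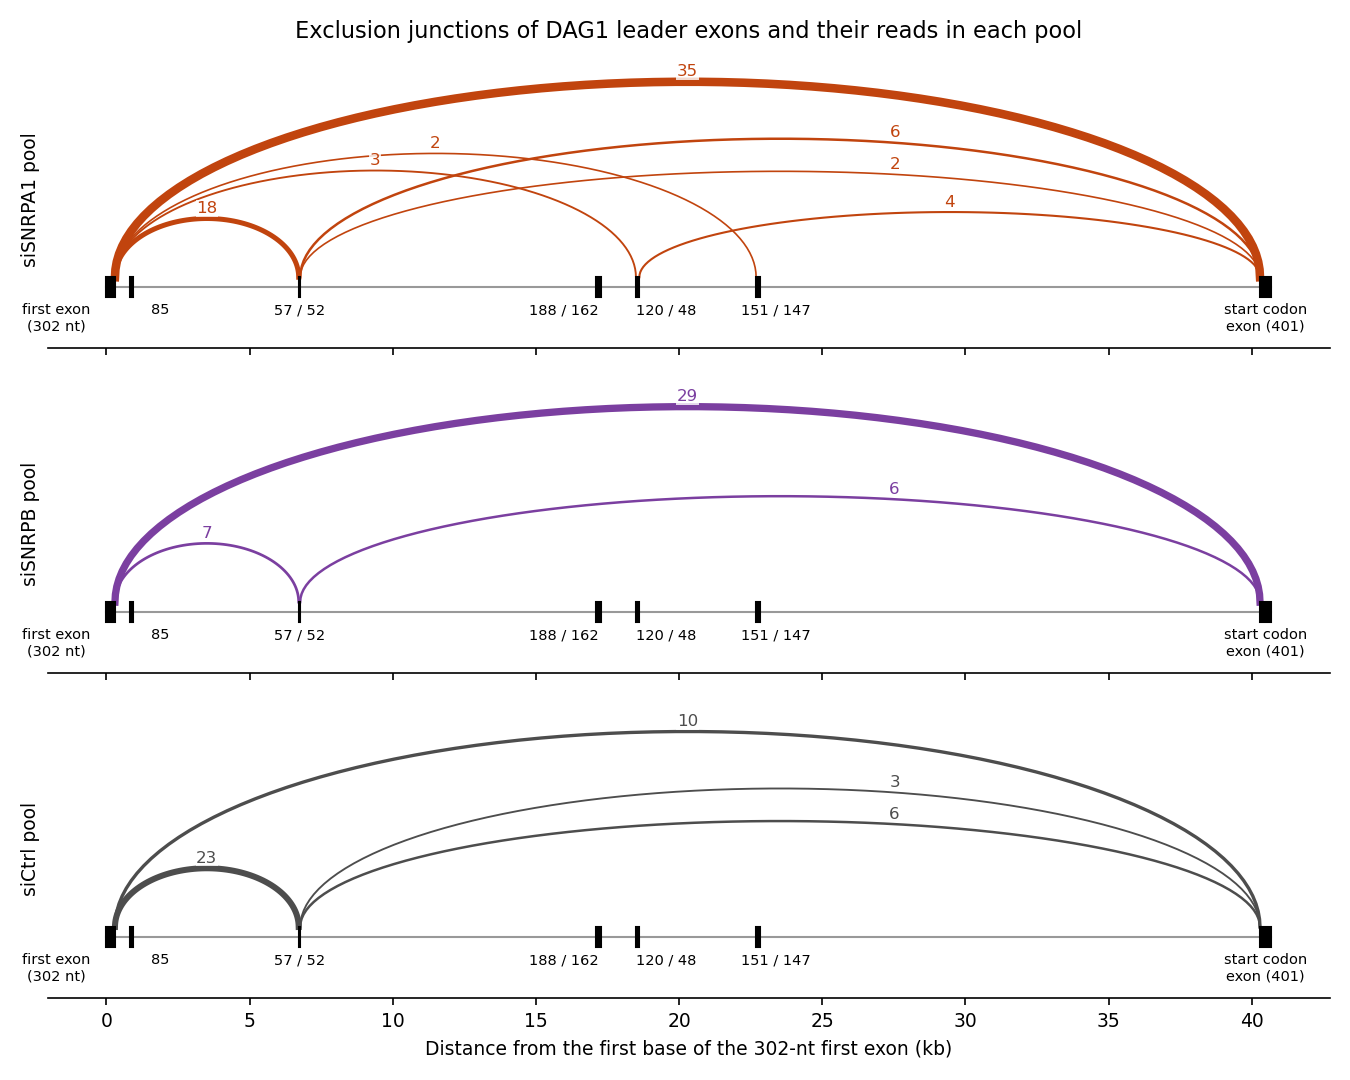
Map of the DAG1 leader with exons to scale (x axis in kb from the first base of the 302-nt first exon) and an arc for each exclusion junction with reads, 1 panel per pool, the number giving its reads and the line width growing with them. The arc over all middle exons has 35 reads in siSNRPA1, 29 in siSNRPB and 10 in siCtrl. The arc to the start shared by the 57- and 52-nt forms has 18, 7 and 23.

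The 57-nt exon and its 52-nt form had lower inclusion levels in both knockdowns. The inclusion level is the authors' posterior mean on a scale from 0 (always skipped) to 1 (always included). For the 57-nt exon between the 302-nt first exon and the start codon exon it was 0.36 in siSNRPA1 (the authors' interval 0.27 to 0.48), 0.21 in siSNRPB (0.10 to 0.33) and 0.63 in siCtrl (0.46 to 0.78). The siSNRPB interval lay wholly below that of siCtrl, and the siSNRPA1 interval overlapped it by a small margin. Inclusion-only and exclusion-only reads were 35 and 35 in siSNRPA1, 11 and 29 in siSNRPB, and 33 and 10 in siCtrl. Inclusion reads thus made up 35 of 70 in siSNRPA1 (Wilson interval of the share 38.6 to 61.4%), 27.5% in siSNRPB (16.1 to 42.8%) and 76.7% in siCtrl (62.3 to 86.8%).

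The 52-nt form shares its exclusion reads, its join from the first exon and all of its bases with the 57-nt form. The 52-nt form stood at levels of 0.30 in siSNRPA1 (0.21 to 0.41), 0.24 in siSNRPB (0.14 to 0.36) and 0.60 in siCtrl (0.46 to 0.73). Both knockdown intervals lay below the siCtrl interval. When a 143-nt first exon that ends earlier (at 49470274) was the upstream partner, the exclusion junction had 0 reads in all 3 pools, and the informative reads were few. The 57-nt exon then had 18 inclusion reads in siSNRPA1, 4 in siSNRPB and 14 in siCtrl, with levels of 0.42, 0.26 and 0.54 and intervals that overlapped. The Wilson lower bound of the inclusion read share there was 82.4% in siSNRPA1, 51.0% in siSNRPB and 78.5% in siCtrl. This share of reads is not on the scale of the level. The 52-nt form had 9, 6 and 10 inclusion reads with that first exon, at levels of 0.26, 0.39 and 0.44 in the same order of pools. The 302-nt first exon gave 17, 7 and 19 more inclusion reads for the 57-nt exon than the 143-nt first exon in siSNRPA1, siSNRPB and siCtrl, beside the 18, 7 and 23 reads of the junction from the 302-nt exon. With the 162-nt exon as its downstream partner the 57-nt exon had higher levels in every pool, at 0.90 in siSNRPA1 (0.70 to 0.99), 0.79 in siSNRPB (0.48 to 0.97) and 0.93 in siCtrl (0.81 to 0.99). It had 29, 11 and 30 inclusion reads there and 0 exclusion reads in each pool. The Wilson lower bound of the inclusion read share was 88.3% in siSNRPA1, 74.1% in siSNRPB and 88.6% in siCtrl.

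The 151-nt exon, the one rich in ATG triplets, had the lowest levels in the knockdown pools among the exon forms with 20 or more informative reads per pool, together with its 147-nt form. Its level was 0.10 in siSNRPA1 (0.06 to 0.15), 0.06 in siSNRPB (0.02 to 0.11) and 0.30 in siCtrl (0.19 to 0.43). The intervals of both knockdowns lay below that of siCtrl. Inclusion and exclusion reads were 14 and 35 in siSNRPA1, 4 and 29 in siSNRPB, and 22 and 10 in siCtrl, so inclusion reads made up 28.6% (17.8 to 42.4%), 12.1% (4.82 to 27.3%) and 68.8% (51.4 to 82.0%). For the 147-nt form the levels were 0.09, 0.06 and 0.30 in the same order of pools, with 12, 4 and 22 inclusion reads.

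A second event places the same 151-nt exon between the 120-nt exon and the start codon exon and thus does not use the skipping junction. Its levels there were 0.11 in siSNRPA1 (0.06 to 0.18), 0.10 in siSNRPB (0.03 to 0.24) and 0.28 in siCtrl (0.17 to 0.41), with overlapping intervals. Exclusion reads were only 4 in siSNRPA1 and 0 in siSNRPB and siCtrl, and the inclusion reads were the same 14, 4 and 22.

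The 85-nt exon did not follow this direction. Its level between the first exon and the 57-nt exon was 0.64 in siSNRPA1 (0.51 to 0.75), 0.73 in siSNRPB (0.57 to 0.87) and 0.55 in siCtrl (0.43 to 0.68), with intervals that overlapped in all pairs. Inclusion and exclusion reads were 58 and 18 in siSNRPA1, 31 and 7 in siSNRPB, and 43 and 23 in siCtrl, or 76.3%, 81.6% and 65.2% inclusion. Its exclusion junction ends at the start that the 57- and 52-nt forms share, so exclusion reads come only from molecules joined there. Reads within the 85-nt exon count as inclusion whatever exon follows it.

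The 162-nt exon was intermediate, and its level differed between the events that hold it. Between the first exon and the start codon exon its level was 0.36 in siSNRPA1 (0.28 to 0.45), 0.35 in siSNRPB (0.24 to 0.46) and 0.43 in siCtrl (0.31 to 0.57), with 64, 34 and 37 inclusion reads beside the 35, 29 and 10 exclusion reads of the skipping junction. Inclusion reads made up 64.6% (54.8 to 73.4%), 54.0% (41.8 to 65.7%) and 78.7% (65.1 to 88.0%). The levels overlapped, and the read share of siSNRPB barely touched that of siCtrl. With the 57-nt exon upstream, the levels were 0.39 in siSNRPA1, 0.58 in siSNRPB and 0.36 in siCtrl, with only 6, 0 and 3 exclusion reads. With the 120-nt exon downstream they were 0.85, 0.92 and 0.95, with 3, 0 and 0 exclusion reads. The inclusion reads were the same 64, 34 and 37 in each of these events, so use with each partner was not measured apart. The 188-nt form, measured after the 52-nt form, stood at 0.39 in siSNRPA1, 0.41 in siSNRPB and 0.31 in siCtrl, with 69, 34 and 38 inclusion and 2, 6 and 6 exclusion reads.

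Against the skipping junction the 120-nt exon had levels of 0.13 in siSNRPA1 (0.07 to 0.19), 0.11 in siSNRPB (0.05 to 0.19) and 0.21 in siCtrl (0.10 to 0.33). These intervals overlapped. It had 16, 7 and 12 inclusion reads in the same order, or 31.4% (20.3 to 45.0%), 19.4% (9.75 to 35.0%) and 54.5% (34.7 to 73.1%) of informative reads. Between the 162-nt exon and the start codon exon it stood at 0.14, 0.18 and 0.20, with 13, 7 and 12 inclusion reads. Exclusion reads there were 0 in each pool. Between the first exon and the 151-nt exon it stood at 0.50, 0.66 and 0.70, with 14, 7 and 12 inclusion and 2, 0 and 0 exclusion reads. Its 48-nt form had 4 inclusion reads in siSNRPA1 and 0 in the other pools, with 0 exclusion reads throughout, and its levels of 0.11, 0.09 and 0.06 rest on no other informative read.

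**Figure D2:**
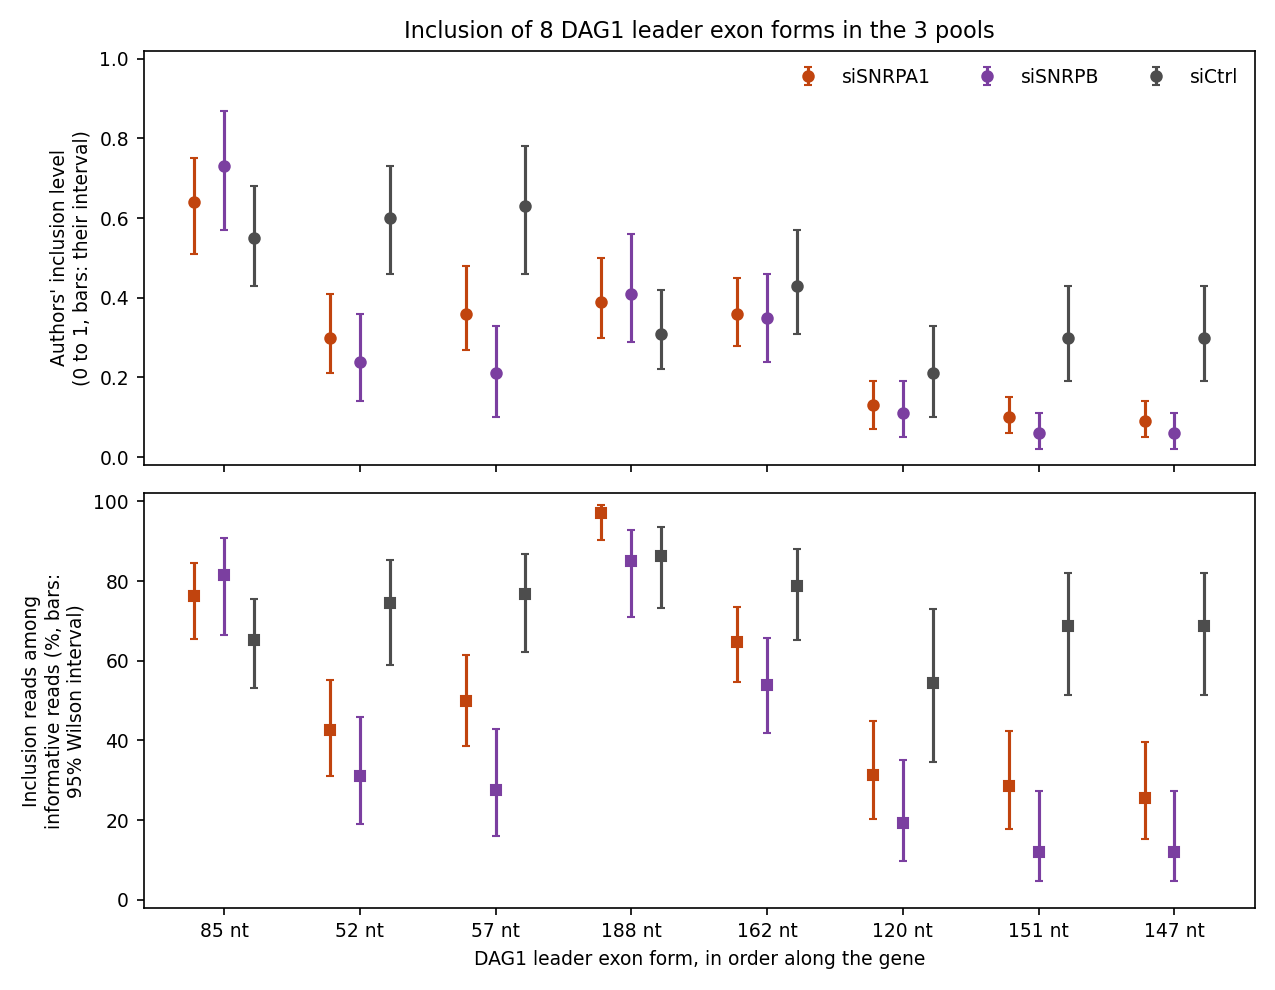
Inclusion of 8 DAG1 exon forms in siSNRPA1, siSNRPB and siCtrl (left to right within each form), above as the authors' inclusion level with their interval and below as percent of inclusion reads with the 95% Wilson interval. The 57-, 52-, 151- and 147-nt forms are lower in both knockdown pools than in siCtrl, and the 85-nt exon is not.

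The same skipping junction is the exclusion read of 6 kept events, so their exclusion reads are the same 35, 29 and 10 and the forms are not independent of each other. Inclusion-only reads per 1000000 informative reads of the pool do not use that junction. Against siCtrl they were lower for some exon forms and higher for others, with intervals that overlapped for every form. For the 151-nt exon they were 1.96 in siSNRPA1 (Poisson interval 1.07 to 3.28), 1.28 in siSNRPB (0.35 to 3.29) and 4.23 in siCtrl (2.65 to 6.40). These are 46.3% and 30.3% of the siCtrl value in siSNRPA1 and siSNRPB, and both intervals overlapped that of siCtrl. For the 57-nt exon they were 4.89 (3.41 to 6.80), 3.53 (1.76 to 6.32) and 6.34 (4.37 to 8.91), or 77.1% and 55.6% of siCtrl.

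For the 162-nt exon the inclusion-only reads were higher in both knockdown pools. They were 8.94 per 1000000 in siSNRPA1 (6.89 to 11.4), 10.9 in siSNRPB (7.56 to 15.2) and 7.11 in siCtrl (5.01 to 9.81). The 85-nt exon had 8.11, 9.95 and 8.27, and the 120-nt exon 2.24, 2.25 and 2.31, in the same order of pools. Thus the 162-nt exon had as many inclusion reads per 1000000 in the knockdown pools as in siCtrl or more, and its lower read share in siSNRPA1 and siSNRPB came with a larger count at the skipping junction. All these intervals overlapped between pools.

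**Figure D3:**
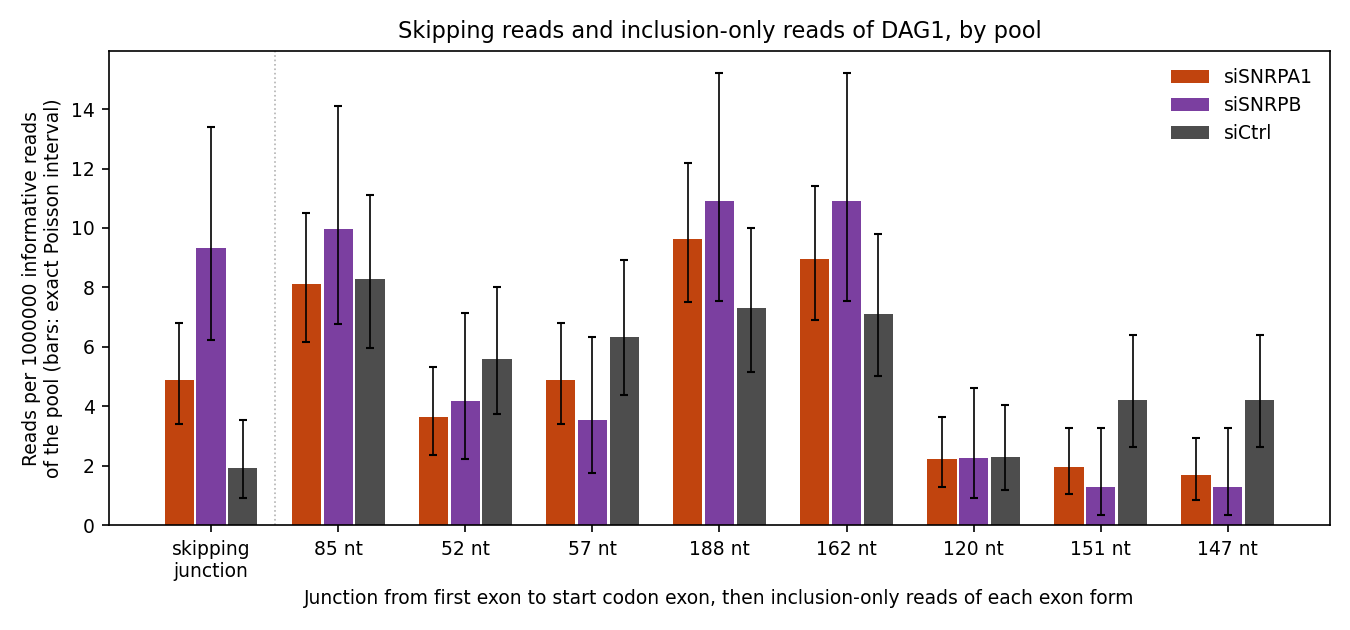
Reads per 1000000 informative reads of the pool at the skipping junction and, right of the dotted line, inclusion-only reads of each DAG1 exon form, in siSNRPA1, siSNRPB and siCtrl (bars from 0, with exact 95% Poisson intervals). The skipping junction stands at 4.89, 9.31 and 1.92, while the 162-nt exon stands at 8.94, 10.9 and 7.11 and the 151-nt exon at 1.96, 1.28 and 4.23.

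Over all 17 events the level was lower than in siCtrl for 13 and higher for 4 in each knockdown. Of these events 6 share the skipping junction. By a different measure, exons of all genes meeting the pass rule given below were 827 lower and 270 higher in siSNRPA1, and 707 and 196 in siSNRPB. The differences ran from -0.30 to 0.09 in siSNRPA1, with a median of -0.10, and from -0.42 to 0.22 in siSNRPB, with a median of -0.08. The authors' intervals stood apart from siCtrl for 3 events in siSNRPA1 and for 4 in siSNRPB, all of them of the 57-, 52-, 151- and 147-nt forms against the skipping junction. Between siSNRPA1 and siSNRPB the intervals stood apart for 0 of 17 events. Shares over the events of all genes were not counted for level direction or interval separation, so these counts are descriptions only.

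**Figure D4:**
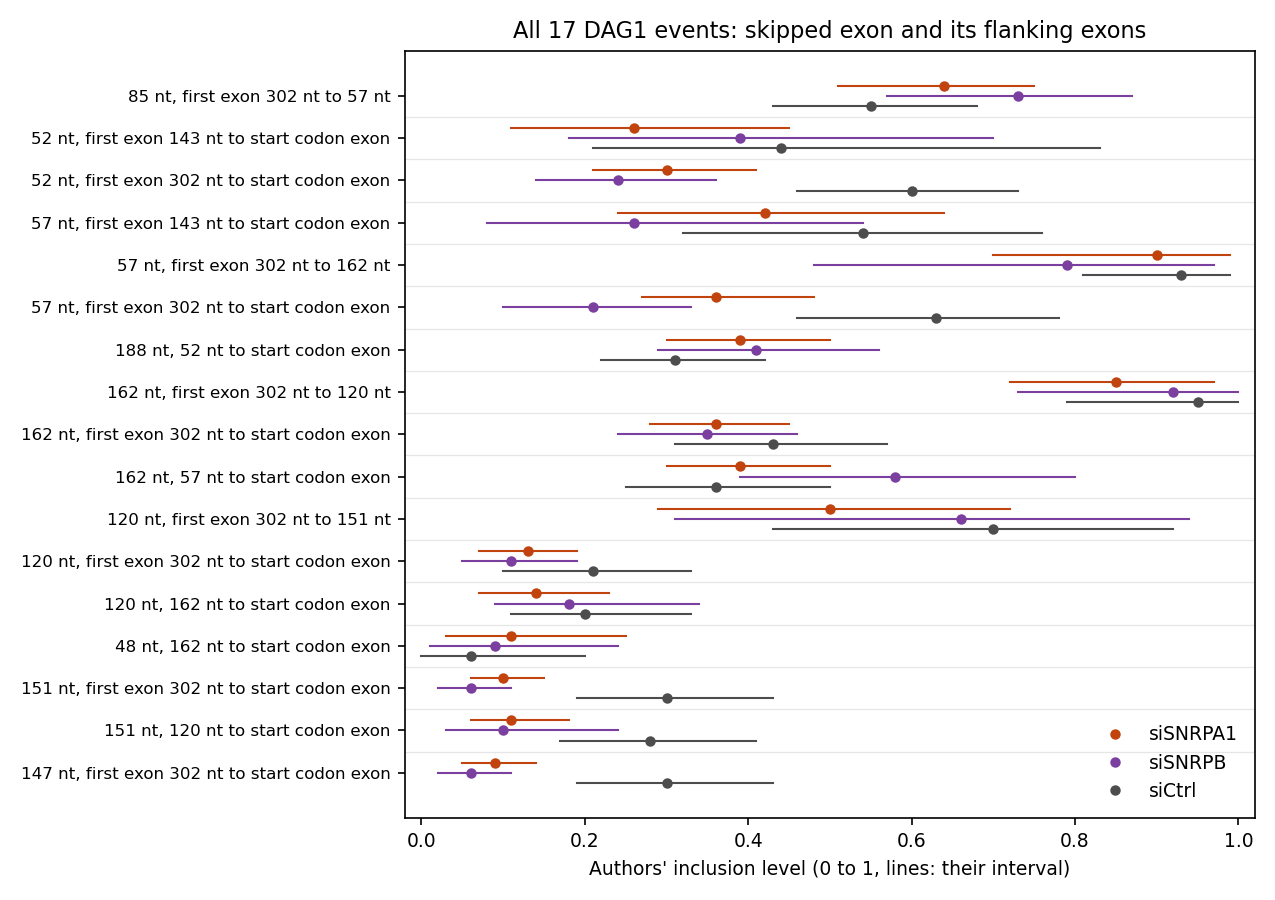
The authors' inclusion level (x axis, 0 to 1, lines for their interval) of all 17 DAG1 events in siSNRPA1, siSNRPB and siCtrl (top to bottom within each event), each named by its skipped exon and the exons that flank it. The same 57-nt exon has a level of 0.63 in siCtrl against the skipping junction and of 0.93 when the 162-nt exon is the downstream partner.

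The pass rule used for all genes asks for an adjusted p under 0.05 in Fisher's exact test on the informative reads and a difference in level of at least 0.1 in the same direction. Of the 9 DAG1 forms 8 had enough reads in every comparison, the 48-nt form being the exception. In siSNRPA1 against siCtrl 4 of 8 met the rule with lower inclusion (the 57-, 52-, 151- and 147-nt forms) and 0 with higher. Of all 6459 exons tested there 17.0% met the rule, 12.8% with lower and 4.18% with higher inclusion. In siSNRPB against siCtrl 5 of 8 met it with lower inclusion (the same 4 and the 120-nt exon) and 0 with higher, beside 21.3% of 4244 exons, 16.7% with lower and 4.62% with higher inclusion. The median difference in level was -0.14 over the 8 forms and -0.02 over all tested exons in siSNRPA1, and -0.17 and -0.01 in siSNRPB. The gene was chosen from these values and the forms share reads, so the counts are a description only. They also rest on few reads: with read counts divided by 2, 0 forms met the rule in either knockdown.

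Between the knockdowns 0 of 8 forms met the rule, beside 14.7% of 5082 exons (8.28% higher and 6.38% lower in siSNRPA1). The difference in level furthest from 0 among these 8 was that of the 57-nt exon, at 0.36 in siSNRPA1 and 0.21 in siSNRPB, a difference of 0.15, with 35 of 70 informative reads for inclusion in siSNRPA1 and 11 of 40 in siSNRPB. The remaining differences lay between -0.09 and 0.06. Missing the rule does not show that the pools were alike at these depths.

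In the authors' deposited table the Bayes factor, which sets the evidence that the levels differ over the evidence that they do not, was at least 10 for 3 of 17 DAG1 events in siSNRPA1 and for 4 of 17 in siSNRPB. Over all events of the authors' deposited tables this held for 8.11% of 44653 and 8.63% of 38112. For siSNRPA1 the authors' deposited table gives 112 for the 147-nt form, 18.5 for the 52-nt form and 10.2 for the 151-nt exon, while the 57-nt exon had 5.78. For siSNRPB the authors' deposited table gives 1807 for the 52-nt form, 1395 for the 57-nt exon, 1358 for the 147-nt form and 574 for the 151-nt exon. The 120-nt exon against the skipping junction, which met the rule in siSNRPB, had 0.52 there.

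Among reads that fit an isoform, those over the DAG1 leader were not fewer in the knockdown pools. The deepest event, that of the 162-nt exon, had 551 fitting reads in siSNRPA1, 246 in siSNRPB and 311 in siCtrl. Per 1000000 fitting reads of the pool this was 20.1 (18.5 to 21.9), 21.5 (18.9 to 24.3) and 16.8 (14.9 to 18.7) in siSNRPA1, siSNRPB and siCtrl, or 120% (counting interval 104 to 138%) and 128% (108 to 152%) of siCtrl. Summed over the 9 forms, where the same read can count several times, siSNRPA1 stood at 114% and siSNRPB at 119%. Over 7716 genes the median was 99.8% in siSNRPA1 (quartiles 84.0 and 115%) and 95.2% in siSNRPB (73.5 and 118%), with 73.8% and 75.9% of genes below DAG1. With reads that fit neither isoform included, DAG1 stood at 98.5% and 101%. Fewer cells with the RNA and less RNA per cell cannot be told apart in such pools. The median share of reads that fit neither isoform, such as intronic ones, was 85.4% over the DAG1 events in siSNRPA1, 82.5% in siSNRPB and 87.9% in siCtrl, and their part in the levels was not tested.

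Genes that act with dystroglycan were read from a list of 68 symbols in 4 roles, of which 50 had skipped-exon events and 16 had a tested exon. In siSNRPA1 against siCtrl 1 of 22 tested exons passed with lower inclusion and 0 with higher, beside 12.8% and 4.18% of all tested exons, with a median difference of -0.015 beside -0.02 over all tested exons. By role, 1 of 9 exons fell among the enzymes that build the sugar chains, and 0 of 5 of the dystrophin-associated complex, 0 of 4 of the extracellular ligands and 0 of 4 of the cytoplasmic partners and proteases passed. The exon that fell was the 101-nt exon of B3GALNT2 (chr1:235489168-235489268), a glycosyltransferase of the sugar chain that binds laminin. It stood at 0.69 in siSNRPA1 and 0.83 in siCtrl, with 98 inclusion and 9 exclusion reads in siSNRPA1 and 68 and 0 in siCtrl (adjusted p = 0.0424, Fisher's exact test with Benjamini-Hochberg adjustment over all tested exons).

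In siSNRPB against siCtrl 1 of 10 exons of the list fell and 0 rose, beside 16.7% and 4.62% of all tested exons, with a median difference of 0 beside -0.01 over all tested exons. It was a 461-nt exon of POMT1 (chr9:131504189-131504649), the protein O-mannosyltransferase that starts the sugar chains, and it matched no annotated exon. Its level was 0.39 in siSNRPB and 0.63 in siCtrl, with 76 inclusion and 33 exclusion reads in siSNRPB and 73 and 10 in siCtrl (adjusted p = 0.0112, Fisher's exact test). The authors' intervals of this exon overlapped slightly, at 0.30 to 0.49 in siSNRPB and 0.48 to 0.75 in siCtrl. In siSNRPA1 the same exon stood at 0.51, which did not pass against siCtrl. The annotated 152-nt exon of POMT1 begins at the same base and has the same exclusion reads. It stood at 0.60 in siSNRPB and 0.76 in siCtrl and did not pass.

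In siSNRPA1 against siSNRPB 1 of 14 exons of the list was lower in siSNRPA1 and 0 were higher, beside 6.38% and 8.28% of all tested exons, with a median difference of 0.015 beside 0. This was a 3381-nt exon of PLEC (chr8:143922504-143925884), a plakin linker reported to bind beta-dystroglycan, at levels of 0.52 in siSNRPA1 and 1.00 in siSNRPB (adjusted p = 0.0209, Fisher's exact test). Its reads differed far less than its level, with 18 exclusion reads beside 55672 inclusion reads in siSNRPA1 and 4 beside 54786 in siSNRPB. In siCtrl the PLEC exon stood at 0.99 with 51 exclusion and 80008 inclusion reads. The difference in level of siSNRPA1 from siCtrl, -0.47, did not pass because the read shares ran the other way (adjusted p = 0.0448, Fisher's exact test). Since each side is 1 pool, these tests speak of the pools' reads and not of the treatments.

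The exons of other genes whose levels over the 3 pools lay nearest to those of the 57-nt and 52-nt forms were found by Euclidean distance among 8845 exons (50 or more informative reads per pool). For the 57-nt exon they were in EIF3K (distance 0.051), ZNF131 (0.058), MLPH (0.073), C8orf59 (0.088) and PARL (0.108), whose exon is also annotated to AC131160.1. The EIF3K exon of 78 nt stood at 0.35 in siSNRPA1, 0.16 in siSNRPB and 0.63 in siCtrl. For the 52-nt form they were in ZNF131 (0.047), PARD3 (0.070), BIRC5 (0.082), SMN2 (0.088) and SRRM1 (0.093). The ZNF131 exon of 145 nt stood at 0.33, 0.26 and 0.63 in the same order of pools. SMN2 has a near-identical copy, so its reads are uncertain, and a distance over 3 pools describes levels only.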

How the data were processed

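Total RNA of MDA-LM2 cells was sequenced from stranded low-input libraries (6 libraries in 3 groups), per the labels' protocols. The submitters' processing notes name STAR 2.7 and hg38, and the column names are those of MISO, with version, settings and way of pooling not given in the sources used here. The authors deposited, per group and event, an inclusion level (a fraction from 0 to 1, rounded to 2 decimals) with an interval of unstated width, and reads in classes that fit inclusion only, exclusion only, both or neither isoform. Their deposited comparison tables hold the Bayes factor, a ratio, and the difference in level, a score between -1 and 1. The deposited differences equalled those of the summaries, within 0.01, in 44653 of 44653 and 38112 of 38112 events. Unused columns of per-sample values numbered 0.

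Genes came from GENCODE 29, on the same build as the files, by exact same-strand exon match or else by the gene that holds the exon. Where events share a skipped exon, the one with most informative reads was kept for tests. Exons were tested where both pools held 20 or more informative reads and, summed over the pools, each read class held 5 or more; Fisher's exact test, two-sided, was used, adjusted by Benjamini-Hochberg over all of them. The test was also run on simulated reads that were drawn independently and judged by read shares. That run could not assess the authors' levels or reads that are not independent molecules. A junction with 0 reads was given a limit of 3 counts. Whether counting used strand is not stated. Alternatives were read minimums of 10 and 50, a difference of 0.2, read shares in place of levels, all events, and halved reads. For the dystroglycan list, passing exons were named, up to 2 per role and comparison; for the 2 DAG1 forms with most informative reads among those that met the rule, the 5 nearest exons. The members and lists were chosen with earlier results of these data known. Python 3.11.15, scipy 1.17.1, numpy 2.4.6 and pandas 2.3.3 were used.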

Additional observations from a re-analysis of the deposited data

How the results depend on the processing

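Of 76 alternative values 55 stayed within 1.5 times the reported ones and 21 moved further. In each case the cause was not tested beyond what the setting itself removes. The 55 include the DAG1 read levels with reads that fit neither isoform, at 98.5% of siCtrl in siSNRPA1 and 101% in siSNRPB. Both of these lay below the counting intervals of the deepest event, 104 to 138% and 108 to 152%. The counts of DAG1 forms that met the rule, 4 in siSNRPA1 and 5 in siSNRPB against siCtrl, were 0 and 0 with at least 50 informative reads, where 1 and 0 forms were left to test, and 0 and 0 with read counts divided by 2, where 3 and 2 were left. For exons of all genes, at least 50 informative reads gave 711 (siSNRPA1 against siCtrl), 539 (siSNRPB against siCtrl) and 419 (siSNRPA1 against siSNRPB). A difference of at least 0.2 gave 554, 512 and 420 in the same order, and reads divided by 2 gave 291, 300 and 205. For the dystroglycan list, the 1 passing exon of each comparison became 0, 0 and 0 with reads divided by 2, and 0 in siSNRPA1 against siCtrl at a difference of 0.2. With read shares it became 3 in siSNRPA1 and 2 in siSNRPB against siCtrl. Between the knockdowns read shares gave 1, which was SGCE, higher in siSNRPA1, in place of PLEC. All annotated events gave 2 in siSNRPA1 against siCtrl, and a minimum of 10 reads gave 2 between the knockdowns. The authors' level lay outside the Wilson interval of the read share for 10 of 11, 3 of 10 and 7 of 12 DAG1 events with at least 20 informative reads in siSNRPA1, siSNRPB and siCtrl. No paired analysis was possible because the files hold 1 pool per group, and leaving out single libraries could not be run for the same reason. Depth limits the events of the 143-nt first exon, of the 48-nt form and of the 120-nt exon away from the skipping junction. In these, 0 to 18 informative reads per event remained.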
